A study of Homo sapiens with 6 samples.

Results

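Sites near olfactory receptor genes were examined as an example of gene clusters taken to be silent in most cells outside the nose. Whether these genes were silent in the cells used was not measured here. A site was included when it lay within 10 kb of the body of a protein-coding gene whose symbol is OR followed by digits, letters and digits, and the interval chr11:5100000-5400000 was left out. Of the 181135 sites in the deposited table, 376 met this rule, and 27 more lay in the excluded interval. The accessibility data came from 6 ATAC-seq libraries of K562, a human leukaemia cell line of genotype WT. In ATAC-seq a transposase cuts open chromatin, so a higher count over a site means that it was cut more often. Cells received 25 nM PMA, a phorbol ester that drives K562 towards a megakaryocyte-like state, and were taken at 0, 6 and 72 h with 2 libraries each. All groups share the cell line, and the 0 h cells serve as the control for both later times. The labels do not say that the 2 libraries of a time came from separate cultures, so p-values measure the spread between these libraries, which may be technical.

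Olfactory receptors are G protein-coupled receptors that bind odorants, and they form the largest gene family of the human genome. Each olfactory sensory neuron normally expresses a single receptor allele, and in most other cells the receptor clusters lie in compact chromatin. In neurons the choice of a receptor depends on enhancers near the clusters and on the factors LHX2 and EBF, which makes these clusters a useful contrast to blood cell genes when a differentiation signal opens chromatin.

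The 390 receptor genes lay on 18 chromosomes, 171 of them on chromosome 11. Of the 390, 172 had at least 1 of the 376 sites within 10 kb while 218 had none of these. The windows of 8 genes touched the excluded interval, whose sites were not counted. Of the 376 sites, 135 were on chromosome 11, 173 overlapped a receptor gene body and 203 flanked one. Of the 376, 74 lay within reach of 2 or more receptor genes and were counted once, under the nearest. The windows around receptor genes held 44.1 listed sites per Mb, and those around other protein-coding genes held 80.3. Sites were 533 bases wide at the median, against 588 for all sites.

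Few receptor promoters were covered by a site. RefSeq promoter windows of GRCh38.p14, taken here as the 250 bases upstream of a gene start, were available for 312 of the 390 receptor genes, in 324 windows. Of these, 14 windows (4.32%) overlapped a listed site, against 64.3% of 21875 windows of other protein-coding genes. The receptor windows had a median GC content of 37.2% and a median of 1 CpG, against 62.4% and 17 for the other genes. Both strands were searched for 7 short motifs. The GATA motif AGATAA stood in 27.5% of receptor windows and 6.78% of the others, and the LHX motif TAATTA in 20.4% and 2.90%. The motif TGACTCA of AP-1, a factor induced by phorbol esters, stood in 3.70% and 3.45%, the RUNX motif TGTGGTT in 4.32% and 3.11%, and the palindromic EBF motif in 1.23% and 1.22%. The CTCF core motif stood in 0.309% and 2.17%, and the ETS motif ACCGGAAGT in 0 of 324 receptor windows and 1.07% of the others. These shares were not adjusted for GC content, and AGATAA and TAATTA are AT-rich words, so the differences do not measure an enrichment of motifs. A match describes letters and is no evidence that a factor binds.

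Of the 14 windows, 7 lay wholly inside a site, and 5 of those are printed 5′ to 3′ on the strand of the gene, chosen after their values were seen to show the different kinds of open receptor promoter. OR7D2 (chr19:9178729-9178978, plus strand) holds an EBF match in capitals. OR6A2 (chr11:6799690-6799939, minus strand) holds none of the 7 motifs. OR52B6 (chr11:5580627-5580876, plus strand) holds an LHX and a GATA match in capitals, the latter as its reverse complement. OR2L13 (chr1:247936927-247937176, plus strand) holds the only CTCF match among the receptor windows, in capitals. OR1F1 (chr16:3187954-3188203, plus strand) holds a tRNA gene, TRP-TGG3-5, in capitals.
OR7D2: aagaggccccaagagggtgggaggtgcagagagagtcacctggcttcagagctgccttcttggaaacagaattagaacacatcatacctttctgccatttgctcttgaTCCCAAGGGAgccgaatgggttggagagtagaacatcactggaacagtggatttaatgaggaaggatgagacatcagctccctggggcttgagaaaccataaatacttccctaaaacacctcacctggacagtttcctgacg
OR6A2: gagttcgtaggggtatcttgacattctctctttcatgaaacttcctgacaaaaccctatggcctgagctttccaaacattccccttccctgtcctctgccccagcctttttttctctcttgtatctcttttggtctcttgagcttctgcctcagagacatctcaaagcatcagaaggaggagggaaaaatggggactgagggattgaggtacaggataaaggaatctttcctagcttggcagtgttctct
OR52B6: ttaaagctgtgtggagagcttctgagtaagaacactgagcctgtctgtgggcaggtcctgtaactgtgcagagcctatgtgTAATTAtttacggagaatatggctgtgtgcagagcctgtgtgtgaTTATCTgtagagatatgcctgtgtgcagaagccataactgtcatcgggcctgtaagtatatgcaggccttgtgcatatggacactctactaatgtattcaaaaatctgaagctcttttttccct
OR2L13: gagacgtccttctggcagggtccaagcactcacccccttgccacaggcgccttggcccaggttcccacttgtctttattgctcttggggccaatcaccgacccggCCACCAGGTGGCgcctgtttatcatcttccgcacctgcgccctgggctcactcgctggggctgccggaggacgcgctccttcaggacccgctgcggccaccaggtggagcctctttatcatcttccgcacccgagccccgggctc
OR1F1: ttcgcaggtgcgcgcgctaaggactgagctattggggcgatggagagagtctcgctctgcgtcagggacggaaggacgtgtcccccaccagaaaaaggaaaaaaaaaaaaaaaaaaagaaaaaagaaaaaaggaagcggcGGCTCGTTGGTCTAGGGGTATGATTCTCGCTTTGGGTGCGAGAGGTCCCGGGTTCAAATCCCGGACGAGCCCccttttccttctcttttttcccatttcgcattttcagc

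Peaks around receptor genes were sparse at 0 h and more frequent at 72 h. The windows of the 390 genes, less the excluded interval, came to 8.531 Mb. They held 111 and 130 deposited peaks in the 0 h libraries, 95 and 147 after 6 h and 255 and 264 after 72 h. The means were 120.5 ± 13.4 at 0 h, 121 ± 36.8 at 6 h and 259.5 ± 6.36 at 72 h (SD, n = 2), so both 72 h libraries lay above all others while the 6 h libraries lay on either side of the 0 h pair. A receptor gene had a peak within 10 kb in 21.45% ± 0.778 of cases at 0 h, 22.25% ± 5.16 at 6 h and 38.05% ± 0.919 at 72 h, against 85.55% ± 1.48, 87.05% ± 2.47 and 92.6% ± 0.141 for other protein-coding genes. Peaks covered 0.670%, 0.655% and 1.51% of the receptor windows at the 3 times, and 1.81%, 2.07% and 3.475% of the windows of other genes. With 2 libraries against 2, an exact permutation test of such numbers cannot go below a two-sided p of 0.33.

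The whole peak lists were also longer at 72 h. A library had 61873 and 69152 peaks at 0 h, 65336 and 93015 after 6 h and 138914 and 142305 after 72 h. The receptor windows took 0.1835% ± 0.00636 of a library's peaks at 0 h, 0.1515% ± 0.00919 at 6 h and 0.185% ± 0.00141 at 72 h. Peak density was 14.1 per Mb at 0 h and 30.4 at 72 h in receptor windows, and 31.5 and 62.6 around other genes, so the receptor windows had the lower density at both times. When the 61873 strongest peaks of every library were taken, the receptor windows held 111 and 115 peaks at 0 h, 93 and 92 after 6 h and 95 and 107 after 72 h, and the 72 h libraries were then no longer above the 0 h pair.

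**Figure D1:**
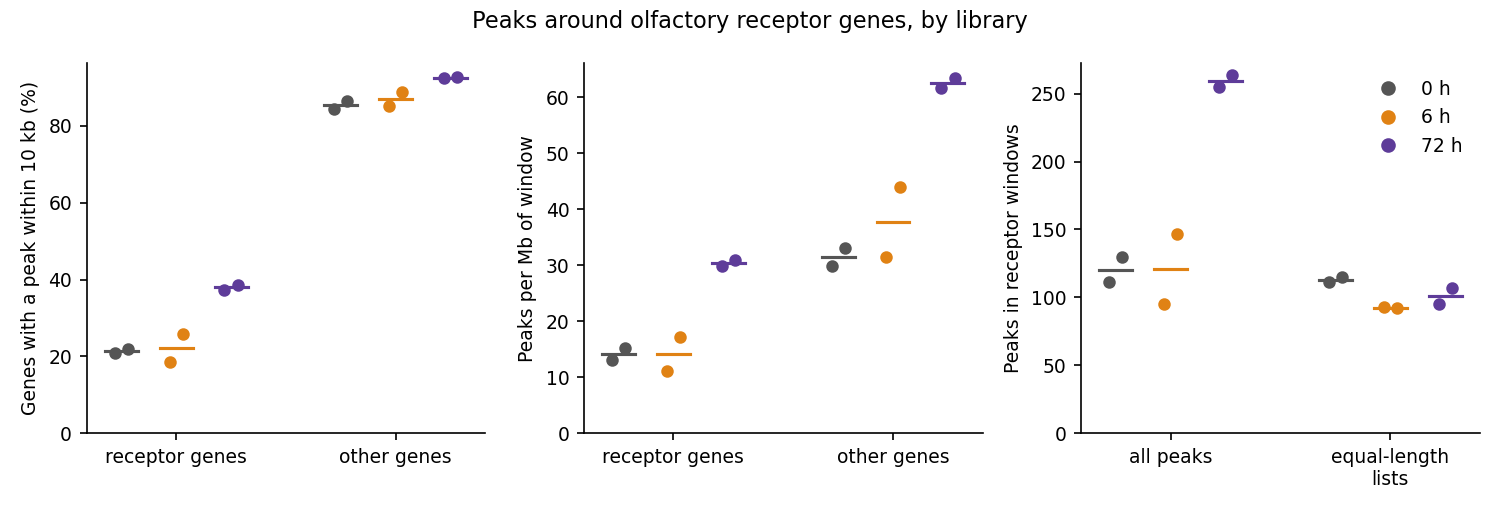
Each point is 1 library and each bar the mean of 2. The panels show the percentage of genes with a peak within 10 kb, the peaks per Mb of window, and the peaks in receptor windows with full lists and with lists cut to 61873 peaks. Receptor windows held 255 and 264 peaks at 72 h with full lists, and 95 and 107 with lists of equal length.

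The share of counts over the sites was higher at 72 h, while the share of a library's peaks in the receptor windows was 0.1835% at 0 h and 0.185% at 72 h. The 376 sites took 0.1093% and 0.1101% of all counts in the 0 h libraries, 0.1072% and 0.103% at 6 h, and 0.1282% and 0.1355% at 72 h. Both 72 h libraries lay above the other 4, and both 6 h libraries below the 0 h pair. A rise at 72 h was not particular to these sites. Ranked by mean scaled count, the strongest quintile of all sites took 78.38% and 79.28% of counts at 0 h and 59.59% and 60.4% at 72 h. Each weaker quintile took a larger share at 72 h. The middle quintile, for example, took 5.7% and 5.383% at 0 h and 11.14% and 10.89% at 72 h. Total counts over all sites ran from 12258890 to 35548737 per library. Of the 376 sites, 365 passed the filter on low counts, and the 11 left out had at most 20 counts in any library.

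At 6 h a smaller share of the receptor sites than of all sites was called higher, a difference of shares that was described and not tested. A site is called here at an adjusted p under 0.05 in edgeR's quasi-likelihood test with Benjamini-Hochberg adjustment over all 177759 sites tested. Of the 365 tested, 47 (12.9%) were higher at 6 h than at 0 h and 59 (16.2%) were lower, against a background over all tested sites of 23.4% higher and 16.8% lower. Their log2 fold changes had a median of -0.20, and those of all sites 0.05. In bulk libraries, more cells with a site open and more cutting per cell cannot be told apart. The lower calls were near the background and the higher calls below it. Under a stricter rule, an adjusted p under 0.01 with an absolute log2 change above 1, 9.04% were higher and 6.85% lower, against 16.4% and 7.11% of all sites.

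At 72 h against 0 h, 116 (31.8%) were called higher and 108 (29.6%) lower, against 38.2% and 29.2% of all tested sites. Their log2 fold changes had a median of 0.18, against 0.29 for all sites. From 6 h to 72 h, 82 (22.5%) were higher and 52 (14.2%) lower, against 22.1% and 20.9% of all sites, with medians of 0.24 and 0.03. The stricter rule left 22.7% higher and 19.5% lower at 72 h against 0 h (30.6% and 20.8% of all sites), and 14.2% higher and 7.40% lower at 72 h against 6 h (14% and 8.56%). The comparisons at 6 h and 72 h share the 0 h libraries, so they are given side by side: 41 sites were higher at both times, 52 were lower at both, 73 were higher at 72 h alone, 55 were lower at 72 h alone, and 131 were called at neither. The matching counts over all sites are not given here, so these classes say nothing particular about receptor sites.

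These directions are relative to the scaling between libraries. On the TMM scale used here, 51.8% of the called receptor sites were higher at 72 h, and this share was 46.2% with RLE factors, 71.0% with total counts, 37.7% with loess offsets and 85.1% with TMM factors from sites with a peak in all 6 libraries. Among all called sites the shares were 56.7%, 51.6%, 71.1%, 49.4% and 84.0% in the same order, so with total counts and with shared peaks the receptor sites were near the background. The same scalings moved the median of all sites from 0.29 to 0.11, 0.79, 0.01 and 1.26. At 6 h the share was 44.3% on the TMM scale and 33.9%, 53.4%, 29.1% and 66.7% with the other scalings in the same order, against 58.2%, 48.9%, 67.3%, 49.9% and 77.3% of all called sites. From 6 h to 72 h it was 61.2%, and 59.4%, 81.5%, 49.0% and 92.3%, against 51.4%, 49.3%, 73.6%, 53.3% and 89.2%. In all 5 scalings 74 receptor sites were called higher and 33 lower at 72 h, and 34 higher and 33 lower at 6 h, for which no matching counts over all sites are given. The median of the receptor sites itself ran from -0.25 with loess offsets to 1.15 with TMM factors from shared peaks at 72 h, and from -0.40 to 0.10 at 6 h with the same 2. Relative to the median of all sites it was -0.25 at 6 h and -0.11 at 72 h, values that a scaling which shifts all sites alike cannot change. With loess offsets, which can, they were -0.31 and -0.26.

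The smaller share of higher calls was seen in each class of signal strength. All tested sites were split into quintiles by mean CPM, the count scaled to the TMM library size, over the 6 libraries. At 6 h, 1.92%, 11%, 23.9%, 23% and 10.6% of the receptor sites were called higher from the weakest to the strongest quintile, against 7.43%, 17.8%, 27.7%, 37.2% and 26.6% of all sites. At 72 h the shares were 25.0%, 40.2%, 39.4%, 37.7% and 12.8%, against 32.3%, 45.8%, 46.2%, 44.3% and 22.4%. The share called higher lay below that of all sites in 5 of 5 quintiles at both times, on each of the 5 scalings and with DESeq2. Among the strongest quintile, 74.5% of the receptor sites were lower at 72 h, against 61.3% of all sites. These shares carry no test of their own, and the quintiles hold 47 to 104 tested receptor sites each.

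**Figure D2:**
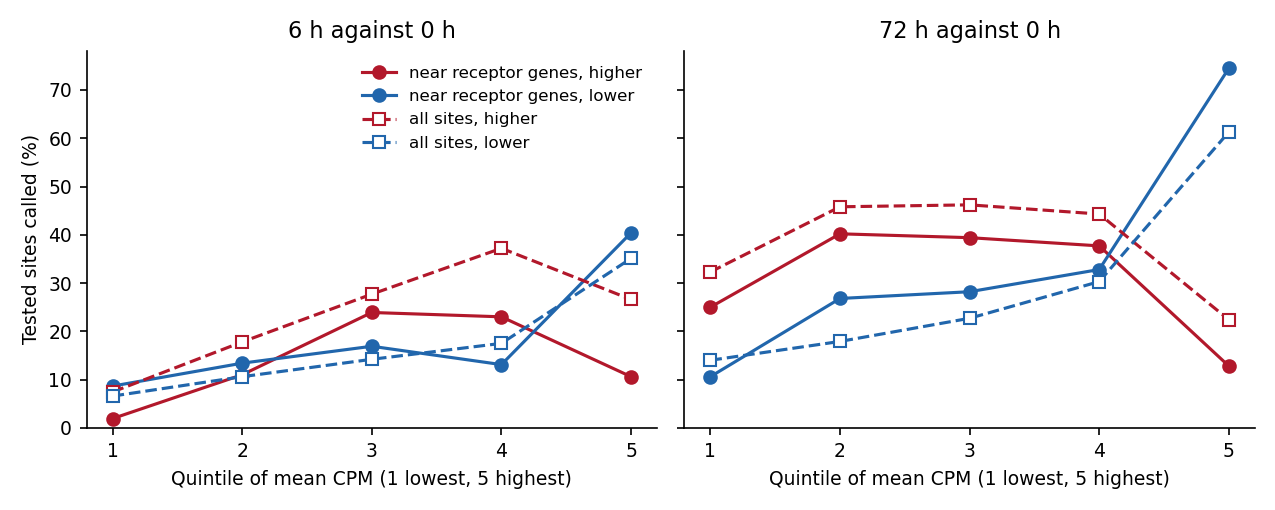
Lines give the percentage of tested sites called higher (red) or lower (blue) in each quintile of mean CPM, for receptor sites (filled, solid) and all sites (open, dashed). The red solid line lies under the red dashed line in each quintile, for example at 23% against 37.2% in the fourth quintile at 6 h.

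Other gene families taken to be closed in blood cells gave other values at 72 h, and some gave similar ones at 6 h. Sites within 10 kb of keratin-associated protein genes, which encode hair proteins, had a median change of 0.80 on the log2 scale at 72 h, with 46.7% called higher and 15.6% lower (45 tested). Sites near late cornified envelope genes, expressed in skin, had a median of 0.72 with 6 of 12 higher and 0 lower. Sites near beta-defensin genes, which encode antimicrobial peptides, had a median of 0.39 with 40.0% higher and 7.27% lower (55 tested), and sites near taste receptor genes a median of -0.17 with 37.9% higher and 41.4% lower (29 tested). Sites over 100 kb from any protein-coding gene had a median of 0.91 with 47.4% higher. At 6 h the shares called higher were 26.7%, 33.3%, 12.7%, 31.0% and 23.8% in the order above, against 12.9% of the receptor sites. The 6 h medians were 0.49, -0.08, 0.07, -0.36 and 0.15, against -0.20. Beta-defensin sites thus had a similar share of higher calls at 6 h, and taste receptor sites a lower median. The differences between families were not tested.

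Sites with different peak patterns had different changes, in receptor loci and across the genome. Of the 376 sites, 61 overlapped a peak in all 6 libraries, 62 in both 72 h libraries only, 11 in both 0 h libraries only and 59 in none. Among tested sites with a peak in all 6, 64.4% were lower at 72 h with a median of -0.77, against 67.8% and -0.95 of such sites in general. Those with a peak at 72 h only were higher in 77.4% of cases with a median of 1.83, against 77.0% of such sites in general, and those with a peak at 0 h only were lower in 11 of 11, with a median of -2.0, against 97.2% and -2.45 of such sites in general. These classes were made from the same libraries and describe the sites without testing them. Sites with no peak at 0 h numbered 243, of which 234 were tested: 46.2% of these were higher at 72 h, against 57.2% of such sites in general, and 18.4% at 6 h, against 31.9%.

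Whether opening spreads from open chromatin can be described by distance. For the tested receptor sites without a 0 h peak, the distance to the nearest site with a peak in both 0 h libraries was 18.4 kb at the median for the 108 called higher at 72 h, 19.8 kb for the 110 not called and 11.2 kb for the 16 called lower. The quartiles of the first 2 classes, 8.28 to 48.3 kb and 4.78 to 45.8 kb, overlapped over most of their range. For all sites the medians were 17.3, 11.8 and 6.09 kb in the same order.

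Values also differed by position within a locus, which was not tested. The 164 tested sites that overlapped a receptor gene body had a median of 0.53 at 72 h, with 37.2% higher and 25.6% lower, and the 201 flanking sites a median of -0.12, with 27.4% higher and 32.8% lower. The 63 tested sites that also lay within 10 kb of another protein-coding gene had a median of -0.47, and the 302 with no such neighbour 0.29. Chaining receptor genes under 500 kb apart gave 49 groups of genes, 11 of them with no listed site. In the 16 groups with 10 or more sites, which hold 294 of the 376, the median at 72 h was above 0 in 7 and below 0 in 8, and at 6 h above 0 in 2 and below 0 in 14, on the TMM scale. These numbers depend on the scaling. At 72 h, 14 of the 16 medians were above 0 with TMM factors from shared peaks, 11 with total counts, 6 with RLE factors and 4 with loess offsets, and at 6 h 8 were above 0 with TMM factors from shared peaks.

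**Figure D3:**
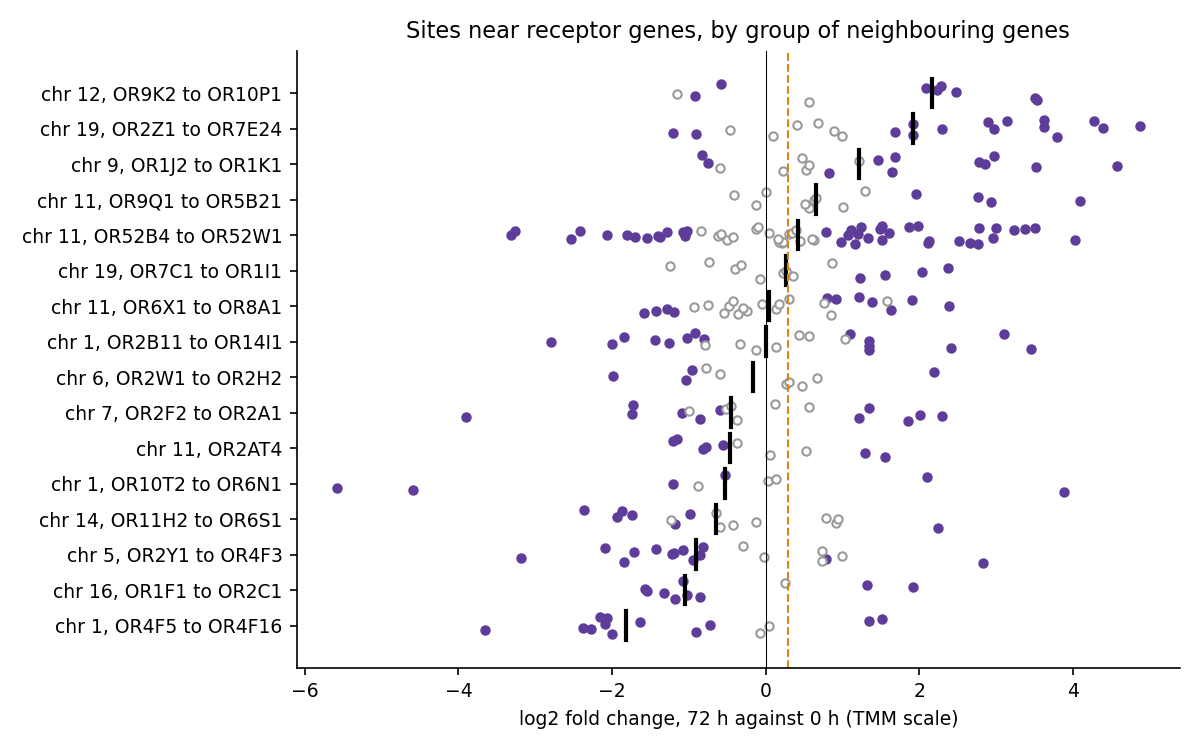
Each point is a tested site, filled where called at 72 h against 0 h and open where not. Black bars are group medians, and the dashed line is the median of all tested sites (0.29). Medians run from -1.82 in the OR4F group of chromosome 1 to 2.16 in the group from OR9K2 to OR10P1 on chromosome 12.

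The 3 groups with the most sites showed mixed changes on the TMM scale. In the order below, 44.8%, 26.9% and 31.8% of their tested sites were higher at 72 h, against 38.2% of all tested sites. The shares lower were 24.1%, 15.4% and 36.4%, against 29.2%, and these differences were not tested. The span of the first group contains the excluded interval, whose 27 sites are not counted in it. The largest, from OR52B4 to OR52W1 on chromosome 11 (chr11:4367263-6200186, 55 receptor genes, 61 sites), had 26 of 58 tested sites higher and 14 lower at 72 h, with a median log2 fold change of 0.42 that ranged from 0.03 to 1.37 over the 5 scalings. At 6 h it had 13 higher and 13 lower. The group from OR6X1 to OR8A1 on chromosome 11 (26 sites) had 7 higher and 4 lower at 72 h with a median of 0.04, which was -0.14 with RLE factors, -0.37 with loess offsets, 0.54 with total counts and 1.00 with TMM factors from shared peaks, the last with 15 higher and 1 lower. The group from OR2B11 to OR14I1 on chromosome 1 (24 sites, 22 tested) had 7 higher and 8 lower at 72 h, which became 8 and 3 with total counts and 12 and 1 with TMM factors from shared peaks. The strongest site of the first group overlapped OR52K1 (peak29703, chr11:4492453-4493708), at 10.9 and 11.8 CPM at 0 h, 7.76 and 10.6 after 6 h and 12 and 14.3 after 72 h, and was not called at 72 h (log2 fold change 0.21, SE 0.20, adjusted p = 0.373). It was called higher with total counts, loess offsets and TMM factors from shared peaks, at 0.71, 0.63 and 1.18.

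The strongest site of the group from OR6X1 to OR8A1, 9749 bases from OR8G5 (peak37615, chr11:124275973-124276733), stood at 8.97 and 7.75 CPM at 0 h, 8.10 and 8.23 after 6 h and 7.20 and 6.40 after 72 h. It was called at neither time (at 72 h -0.30, SE 0.22, adjusted p = 0.233), with the 72 h libraries the 2 lowest, and with TMM factors from shared peaks it was called higher at 0.67. The strongest site of the chromosome 1 group is the promoter of OR2L13 printed above.

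Many sites opened in the chromosome 19 group from OR2Z1 to OR7E24 (chr19:8721634-9252625, 8 genes), which was singled out after its values were seen. Of its 21 tested sites, 13 were higher and 2 lower at 72 h, with a median log2 fold change of 1.92, while at 6 h 3 were higher, 2 were lower and the median was -0.17. From 6 h to 72 h, 15 were higher and 0 lower, with a median of 1.88. Over the 5 scalings the 72 h median ranged from 1.38 to 2.89, with 11 to 17 sites higher, and the 6 h median changed sign. Leaving out each library in turn gave 11 to 15 sites higher at 72 h. The higher sites were not contiguous: between those at OR7G2 and OR7D2, peak81194 near OR7G1 was at 1.82 and 1.91 CPM at 0 h and 0.958 and 0.661 at 72 h (-1.21, adjusted p = 0.011). That call was lost with total counts (0.130), with TMM factors from shared peaks (0.613) and without 72 h replicate 2 (0.140).

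The site with the largest rise among all receptor sites at 72 h lay 1519 bases from OR7E24 (peak81204, chr19:9204237-9204969). It stood at 0.260 and 0.335 CPM at 0 h, 2.22 and 2.21 after 6 h and 7.79 and 10.1 after 72 h. The groups did not overlap, and the log2 fold change was 2.85 at 6 h (SE 0.43, adjusted p = 1.6e-05) and 4.87 at 72 h (SE 0.37, adjusted p = 8.7e-10). A further site 2134 bases from OR7D2 (peak81202, chr19:9190952-9191964) went from 0.845 and 0.335 CPM at 0 h to 2.22 and 1.33 after 6 h and 10.7 and 12.9 after 72 h, a log2 change of 4.39 at 72 h (SE 0.36, adjusted p = 2.2e-09). Its 6 h call (1.56, adjusted p = 0.0070) was lost without 0 h replicate 2 (0.96, adjusted p = 0.134). Within the body of OR7E24, peak81211 (chr19:9251036-9251813) stood at 0.325 and 0.430 CPM at 0 h, 2.56 and 1.96 after 6 h and 7.43 and 7.65 after 72 h (4.28 at 72 h, SE 0.36, adjusted p = 2.9e-09). Between these, peak81205, 432 bases from OR7E24 and open in all 6 libraries, was not called at either time (72 h 0.41, SE 0.27, adjusted p = 0.178). It was called higher at 72 h with total counts (0.91, adjusted p = 0.005) and with TMM factors from shared peaks (1.38, adjusted p = 1.2e-04), and its difference from the neighbouring sites was not tested.

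**Figure D4:**
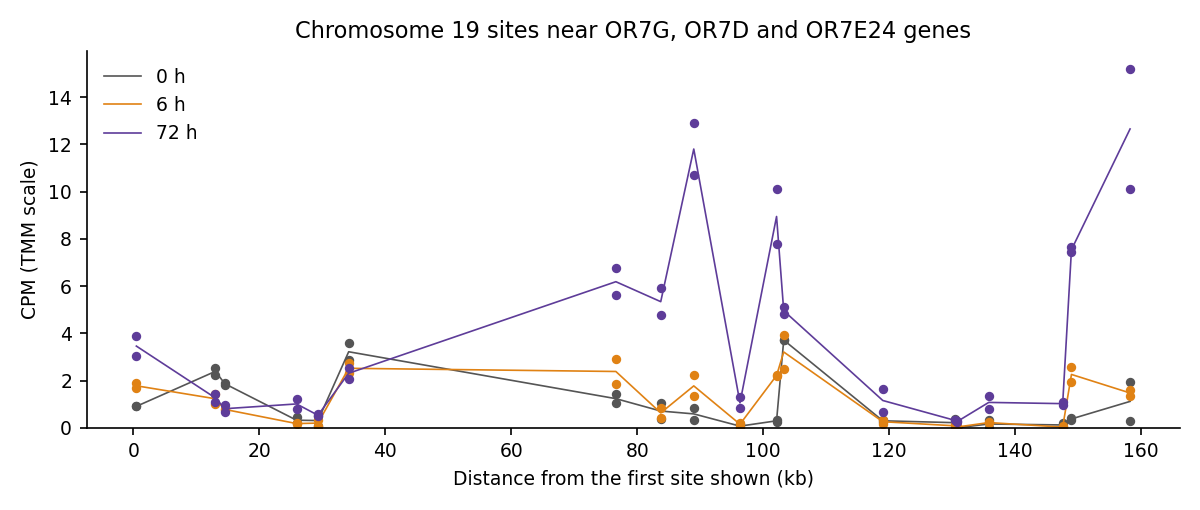
Points are single libraries and lines join the group means, at the 18 sites around the OR7G, OR7D and OR7E24 genes. Several sites reach 5 to 15 CPM at 72 h from near 0, such as peak81202 at 10.7 and 12.9, with low sites between them.

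In the chromosome 9 group from OR1J2 to OR1K1, also picked out after the fact, 9 of 17 sites were higher and 2 lower at 72 h, with a median of 1.21 (0.95 to 2.17 over the 5 scalings). Within the annotated body of OR1J2, peak173774 (chr9:122526440-122527196) stood at 0.0650 and 0.574 CPM at 0 h, 5.37 and 4.24 after 6 h and 7.07 and 9.98 after 72 h. It was the second largest rise both at 6 h (3.73, SE 0.45, adjusted p = 1.0e-06) and at 72 h (4.58, SE 0.43, adjusted p = 9.1e-09), and most of the change was present at 6 h. At peak173768 (chr9:122445460-122447451), which overlaps only one edge of the OR1J2 annotation, the course had a dip: 11.4 and 9.94 CPM at 0 h, 1.36 and 3.54 after 6 h and 16 and 21.9 after 72 h. The site fell at 6 h (-1.97, adjusted p = 1.2e-05) and was higher than at the start by 72 h (0.83, adjusted p = 0.0057), a call lost with DESeq2 (0.055) and without 72 h replicate 2 (0.139). It is 1 of 2 receptor sites with that order of calls. The chromosome 12 group from OR9K2 to OR10P1, picked out after the fact as well, had the highest 72 h median of the 16 groups with 10 or more sites. Its sites were weak, with a median of 0.714 CPM. At 72 h 6 of its 10 sites were higher and 2 lower, against 38.2% and 29.2% of all tested sites. Its median change was 2.16 (1.21 to 3.12 over the scalings). There, peak41604 (chr12:55438230-55438840), 5236 bases from OR6C2, stood at 0.325 and 0.239 CPM at 0 h, 2.90 and 1.74 after 6 h and 2.38 and 4.01 after 72 h (2.98 at 6 h, adjusted p = 9.9e-05).

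On chromosome 11, the largest rise at 6 h was at peak29711 (chr11:4604276-4604725), 9263 bases from OR52I1 and within the body of TRIM68, a ubiquitin ligase gene. It stood at 0.260 and 0.191 CPM at 0 h, 2.64 and 3.39 after 6 h and 3.57 and 3.8 after 72 h (3.77 at 6 h, SE 0.46, adjusted p = 1.1e-06, and 4.03 at 72 h, SE 0.44, adjusted p = 7.9e-08). This site was thus near its final level at 6 h, and from 6 h to 72 h it was not called (0.26, adjusted p = 0.493). Over the body of OR9Q1, peak32686 (chr11:58061226-58062581) rose in steps instead, from 1.23 and 1.05 CPM at 0 h to 6.05 and 5.98 after 6 h and 18 and 21 after 72 h. Its change was 2.40 at 6 h (SE 0.28, adjusted p = 4.7e-07), 4.10 at 72 h (SE 0.26, adjusted p = 1.4e-10) and 1.70 between the 2 later times (adjusted p = 2.9e-06). Over OR56A3, peak29820 (chr11:5967586-5968225) was at 0.390 and 0.191, then 2.56 and 1.77, then 2.64 and 2.64 CPM (2.89 at 6 h, adjusted p = 8.1e-05, and 3.23 at 72 h, adjusted p = 3.7e-06), with the 6 h and 72 h libraries all above the 0 h pair.

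A further early call rested on few counts. At peak29724 (chr11:4820736-4820961), 360 bases from OR51F2 and within the MMP26 gene, the counts were 3 and 0 at 0 h, 6 and 32 after 6 h and 19 and 37 after 72 h. The ratio of CPM over 0 h was 10.6 at 6 h (95% interval 3.37 to 53.7) and 8.37 at 72 h (2.72 to 41.8), intervals that cover counting error only. Both calls (adjusted p = 0.0056 and 0.0046) were lost when 0 h replicate 2 was left out (0.083 and 0.090), the 6 h call also without 6 h replicate 2 (0.129) and the 72 h call also without 72 h replicate 2 (0.058).

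The sites with the largest falls at 6 h were weak, all under 3 CPM at 0 h. The largest fall was at peak29816 (chr11:5846676-5847040), 4779 bases from OR52E6, at 1.82 and 1.39 CPM at 0 h, 0.171 and 0.0949 after 6 h and 0.233 and 0.0944 after 72 h (-3.71 at 6 h, SE 0.69, adjusted p = 1.8e-04, and -3.26 at 72 h, adjusted p = 3.5e-05). No deposited peak overlapped it in any library. Near OR51T1, within MMP26, peak29726 (chr11:4890207-4890710) was at 2.14 and 2.44 CPM at 0 h, 0.256 and 0.475 after 6 h and 0.673 and 0.732 after 72 h (-2.50 at 6 h, adjusted p = 2.3e-04). Its call at 72 h (-1.70, adjusted p = 8.1e-04) was lost with TMM factors from shared peaks (-0.74, adjusted p = 0.112). Near OR8B12, peak37635 (chr11:124537927-124538450) closed and reopened: 2.73 and 2.29 CPM at 0 h, 0 and 0.443 after 6 h and 2.28 and 3.89 after 72 h. The change was -3.01 at 6 h (SE 0.55, adjusted p = 1.4e-04) and 3.32 from 6 h to 72 h (adjusted p = 3.1e-05), with 0.31 at 72 h against 0 h (adjusted p = 0.494). With TMM factors from shared peaks the last was called higher, at 1.27.

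At peak159426 (chr7:141926225-141926424), 5600 bases from OR9A4 and 933 from CLEC5A, a myeloid lectin gene, the counts were 14 and 22 at 0 h, 0 and 4 after 6 h and 16 and 12 after 72 h. The fall at 6 h (-3.40, adjusted p = 0.0013) was past the threshold, while the call at 72 h (-1.49, adjusted p = 0.022) was lost with total counts (-0.99), with TMM factors from shared peaks (-0.53), with DESeq2 (-1.68, adjusted p = 0.077) and without 0 h replicate 2 (-1.38), 72 h replicate 1 (-1.79) or 72 h replicate 2 (-1.24).

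Further losses at 72 h included sites on chromosome 7. There, peak159673 (chr7:143973779-143974455), 9419 bases from OR2F1, went from 4.94 and 3.73 CPM at 0 h to 1.45 and 0.918 after 6 h and 0.337 and 0.236 after 72 h (-1.95 at 6 h, adjusted p = 3.3e-04, and -3.90 at 72 h, SE 0.41, adjusted p = 4.9e-08). The libraries of the 3 times were in 3 separate ranges. The same was seen at peak156234 (chr7:99881442-99881822), near OR2AE1, with 2.08 and 1.96 CPM at 0 h, 0.512 and 0.475 after 6 h and 0.155 and 0.165 after 72 h (-3.61 at 72 h, SE 0.50, adjusted p = 2.0e-06).

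The OR4F genes, several of them near-identical copies close to chromosome ends, formed a group with losses. Reads from one such copy can be placed on another, so the level at any single copy is uncertain. Of the 24 sites nearest to OR4F genes, 17 were lower and 3 higher at 72 h, with a median of -1.26 (-1.60 to -0.29 over the 5 scalings, with 9 to 17 lower). The 1 site near OR4F6 and OR4F15 on chromosome 15 was among the higher ones, at 3.12. At peak85 (chr1:668653-668929), 7147 bases from OR4F16, CPM was 1.95 and 1.34 at 0 h, 0.341 and 0.443 after 6 h and 0.207 and 0.0472 after 72 h (-3.66 at 72 h, SE 0.60, adjusted p = 1.7e-05). At peak87 (chr1:670354-670646) it was 1.1 and 1.72, then 0.341 and 0.221, then 0.207 and 0.330 (-2.44 at 6 h, adjusted p = 0.0023, lost without 6 h replicate 2 at 0.051). Without the OR4F sites, 33.1% of 341 tested receptor sites were higher and 26.7% lower at 72 h, with a median of 0.27.

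The strongest sites within reach of receptor genes were open throughout and were lower at 72 h on the TMM scale. The 5 with the highest mean CPM had a peak in all 6 libraries. The first, peak141999 (chr6:27902099-27903595), lies 7590 bases from OR2B2 and over tRNA genes, at 43.3 and 79.9 CPM at 0 h, 44.3 and 59.6 after 6 h and 22.4 and 19.3 after 72 h (-1.57 at 72 h, SE 0.21, adjusted p = 1.1e-06), a call lost with loess offsets (-0.25, adjusted p = 0.263). The 0 h libraries differed by more than the 6 h libraries did, and all 4 lay above the 72 h pair. Next, peak29944 (chr11:6925491-6927238), near OR2D3 and overlapping ZNF215, a zinc finger gene, was at 47.6 and 49.5, 50.5 and 57.7, and 24.4 and 32.4 CPM (-0.77 at 72 h, adjusted p = 1.7e-04). Its direction turned with loess offsets (0.56) and with TMM factors from shared peaks (0.19).

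The remaining strong sites were peak139385 near OR2V2 on chromosome 5 (54.7 and 33.5, 37.9 and 44.2, and 19.2 and 19.4 CPM, -1.19 at 72 h, adjusted p = 8.2e-06), peak40665 near OR10AD1 on chromosome 12 (44.7 and 47.9, 36.4 and 37.8, and 18.9 and 19.9 CPM, -1.25, adjusted p = 2.1e-07) and peak62224 near OR1F1 on chromosome 16 (21.4 and 30.9, 18.5 and 23.7, and 13.6 and 15.6 CPM, -0.85, adjusted p = 5.2e-04). In each of these 3 the 72 h libraries were the 2 lowest. With loess offsets and with TMM factors from shared peaks the first 2 were not called (-0.03 and -0.23 at peak139385, -0.09 and -0.29 at peak40665), and peak62224 was at 0.01 and 0.13. None of the 5 was called at 6 h on the TMM scale.

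Of the 376 sites, 9 overlapped an annotated tRNA gene, a class noticed after the values were seen. They lie near OR1F1, OR2B2, OR2V2 and OR6S1. All 9 were called lower at 72 h, with a median log2 fold change of -1.54, and 2 were called lower at 6 h. Over the genome, 247 of 279 sites over tRNA genes (88.5%) were lower at 72 h, with a median of -1.33, and 107 (median -0.34) with loess offsets and 116 (-0.35) with TMM factors from shared peaks. At peak50232 near OR6S1 (chr14:20632761-20633564), CPM was 13.5 and 39.4 at 0 h, 21.3 and 21.2 after 6 h and 7.61 and 6.96 after 72 h. In all 9 the second 0 h library lay above the first, and without it 5 of the 9 were called lower at 72 h, with a median of -0.59, and at 6 h the median was then 0.27 with 2 higher. The 279 sites of the genome had 193 lower at 72 h without that library. Over the 5 scalings 4 to 9 of the 9 were lower and 0 higher. The 356 tested sites not over tRNA genes had a median of 0.23 at 72 h, with 32.6% higher and 27.8% lower.

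**Figure D5:**
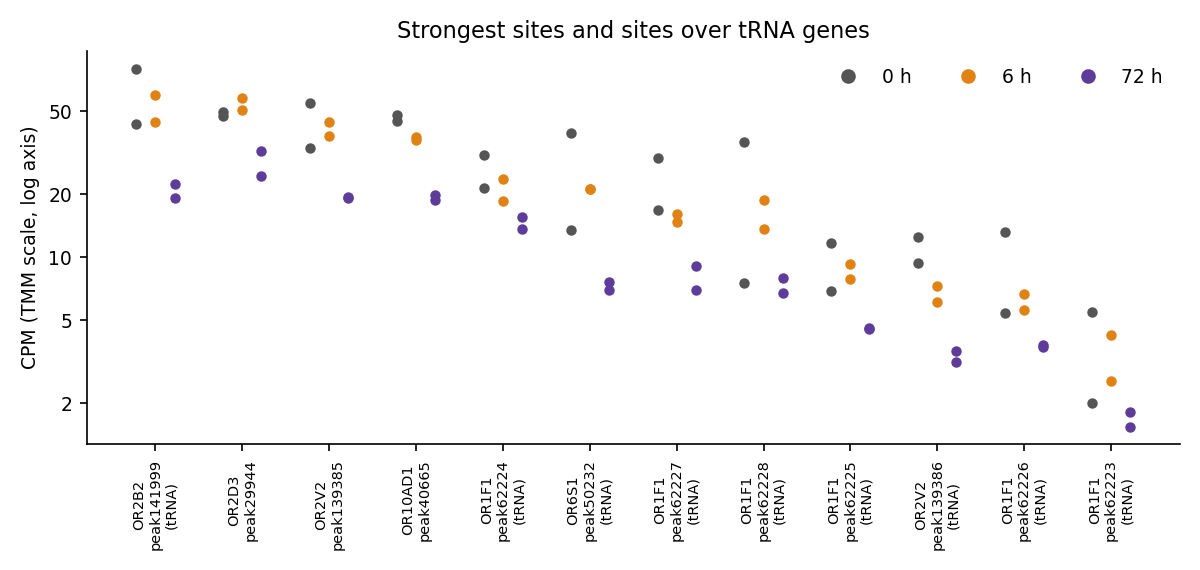
Each point is a library's CPM on a log axis, for the 5 strongest receptor sites and the other sites over tRNA genes. The 72 h libraries lie below the 6 h and 0 h libraries at most sites, for example at 22.4 and 19.3 CPM against 43.3 and 79.9 at 0 h for peak141999.

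Beside the excluded interval, the 9 sites nearest to OR51B5 had a median of -1.05 at 72 h with 5 lower and 1 higher. The higher one, peak29781 (chr11:5486174-5487023), had counts of 63 and 110 at 0 h, 130 and 415 after 6 h and 300 and 506 after 72 h (1.37 at 6 h, adjusted p = 1.5e-04, and 1.07 at 72 h, adjusted p = 6.4e-04, which was 0.051 without 72 h replicate 2). Another site assigned to OR51B5, peak29784 (chr11:5505413-5506056), went the other way, with 313 and 285, 126 and 265, and 153 and 176 counts (-2.06 at 72 h, adjusted p = 1.1e-07). Both were chosen after their values were seen, to show opposite changes among sites assigned to OR51B5. The assignment rests on the nearest annotated receptor gene body, and which gene a site acts on was not tested.

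The promoters printed above moved in both directions. Of the 14 sites that overlapped receptor promoter windows, 8 were higher and 5 lower at 72 h, and 3 higher and 4 lower at 6 h. Of all tested sites, 38.2% were higher and 29.2% lower at 72 h, and 23.4% and 16.8% at 6 h, so sites in general also moved in both directions. The difference was not tested. The OR7D2 promoter, with the EBF match, was at 1.04 and 1.43 CPM at 0 h, 2.90 and 1.87 after 6 h and 5.62 and 6.75 after 72 h (2.30 at 72 h, SE 0.32, adjusted p = 2.1e-06). It was not called at 6 h (0.85, adjusted p = 0.061), and the 3 times did not overlap. The OR6A2 promoter, with no match to the 7 motifs, was at 1.23 and 1.34, 4.26 and 5.41, and 4.63 and 4.18 CPM (1.92 at 6 h, adjusted p = 4.0e-05, and 1.77 at 72 h, adjusted p = 3.0e-05), so it reached its level by 6 h.

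The OR52B6 promoter, with the LHX and GATA matches, was open at 0 h already, at 8.38 and 8.22 CPM, and stood at 6.31 and 6.52 after 6 h and 12.5 and 16.1 after 72 h (0.78 at 72 h, SE 0.21, adjusted p = 0.0023, lost without 72 h replicate 2 at 0.089). The CpG-rich OR2L13 promoter, with 16 CpG and 65.6% GC in the window and the CTCF match, was the strongest of these at 25.2 and 25.0 CPM at 0 h, 18.2 and 14.1 after 6 h and 11.5 and 13.3 after 72 h. It fell at 6 h (-0.65, adjusted p = 0.0074) and at 72 h (-1.02, SE 0.18, adjusted p = 4.1e-05), but with loess offsets or TMM factors from shared peaks the 72 h change was not called (-0.27 and -0.05), and the 6 h call was lost without 6 h replicate 2 (0.093). The OR1F1 promoter that holds the tRNA gene was at 5.39 and 13.2, 6.65 and 5.60, and 3.73 and 3.8 CPM (-1.32 at 72 h, adjusted p = 5.1e-04), and its 72 h call was lost without 0 h replicate 2 (-0.52, adjusted p = 0.129) and with TMM factors from shared peaks (-0.34, adjusted p = 0.301). Of the other windows inside a site, OR52H1 (peak29791) was higher at 72 h (1.20, adjusted p = 0.033), a call lost with RLE factors (1.02), loess offsets (0.49), DESeq2 (1.01) or without 0 h replicate 2, 72 h replicate 1 or 72 h replicate 2 (0.77, 1.14 and 1.24).

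As a check on the cells, 7 of 7 erythroid and megakaryocytic markers, among them GATA1, TAL1 and LMO2, had a peak within 1000 bases of a gene end in both libraries at 0 h and at 72 h, and 0 of 3 B cell markers had one in any library. Of the other lists, CD3E, SPI1, LYZ, EPCAM, COL1A1 and COL1A2 had a peak in all 6 libraries, CD2 in both 72 h libraries and in 1 other, and CD14 and CDH1 in none, so by this measure the lists do not separate K562 from these cell types. Among markers of olfactory sensory neurons, OMP, the olfactory marker protein, and CNGA2, a subunit of the olfactory ion channel, had no peak in any library, GNAL, the olfactory G protein subunit, had one in the 72 h libraries, and ADCY3, an adenylyl cyclase expressed more widely, had one in all 6.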

How the data were processed

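ATAC-seq was measured in 6 libraries of K562 cells. Per the file headers, the authors deposited 1 table with a whole-number count per site and library, their own log2 fold changes at 6 h and 72 h, an adjusted p-value and a class name. They also deposited a peak list per library in the narrowPeak layout, whose score, fold enrichment (ratio over background) and −log10 p and q values are the authors' own. Per the submitters' processing notes, which give no role or order, the tools were Trim Galore 0.4.3, BWA 0.7.17, SAMtools 1.9, deepTools 3.0.1, MACS2, bedtools 2.26 and DESeq, and the build was hg38. How the site list was made, how reads were filtered and whether read ends were shifted for the transposase are not given in the sources used here. In the authors' deposited table, the classes named for early or late, up or down changes all had a median log2 fold change between 2.26 and 2.30 at 72 h, so the class names were not used.

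The counts were fitted in R 4.3.3 with edgeR 4.0.16: default expression filter (minimum count 10), TMM scaling, a quasi-likelihood model with 3 time groups over all 6 libraries, and Benjamini-Hochberg adjustment over 177759 sites. The biological coefficient of variation was 0.166, and replicates differed by more than sampling noise (chi-square per degree of freedom 4.97, 4.43 and 3.51 at 0, 6 and 72 h). Genes, tRNA genes and promoter windows came from RefSeq tables of GRCh38.p14, and coordinates are 1-based. Peaks were counted in a window at any overlap. Alternatives were 4 other scalings, no filter, DESeq2 1.42.0, a replicate term, a stricter threshold, each library left out, other reaches and subsets, and other peak cuts. The members and lists were chosen with earlier results of these data known. Named sites were, among sites with no overlap between the libraries compared and at least 0.5 CPM in the higher group, the 5 with the largest change in each direction at 6 h and at 72 h, the 5 with the highest mean CPM, and the strongest site of the 3 largest groups. Some sites that the rule picks for losses at 72 h are not reported here. Sites named outside this rule are said to be so or lie in a group or promoter set described as chosen after the fact.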

Additional observations from a re-analysis of the deposited data

How the results depend on the processing

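With 2 libraries a group, weak sites limit what can be called: the 59 sites without a peak had a median of 0.451 CPM. In what follows the values are for the receptor sites. With RLE factors the median log2 fold change was -0.35 at 6 h and -0.0012 at 72 h, and with DESeq2 -0.36 and -0.0037, where 12.6% were higher from 6 h to 72 h. With total counts the medians were -0.06, 0.68 and 0.60 (6 h, 72 h, 72 h against 6 h), with 15.9% lower at 72 h and 7.40% lower from 6 h to 72 h. With loess offsets the medians were -0.40, -0.25 and 0.03, or -0.26 and 0.07 relative to all sites in the last 2, with 24.7% lower at 6 h, 21.1% higher at 72 h and 13.7% higher from 6 h to 72 h. With TMM factors from shared peaks the medians were 0.10, 1.15 and 0.90, with 9.04% lower at 6 h, 53.2% higher and 9.32% lower at 72 h, and 45.8% higher and 3.84% lower from 6 h to 72 h. Under the stricter rule (adjusted p under 0.01, log2 change over 1 in size), 6.85% were lower at 6 h, 19.5% lower at 72 h, and 14.2% higher and 7.40% lower from 6 h to 72 h. For gene body sites the 72 h median was 0.53, or 0.24 above all sites, and that from 6 h to 72 h 0.33, or 0.30 above. With a reach of 50 kb the medians were -0.14 and -0.04, or -0.43 and -0.06 relative to all sites, and 22.5% were lower from 6 h to 72 h. Without sites near other genes the 6 h to 72 h median was 0.32, or 0.30 above all sites. The ratio of peak numbers at 72 h over 0 h, 2.15, was 0.894 with lists of equal length, 2.35 in gene bodies and 1.89 with a reach of 50 kb. The cause of these moves was not tested.

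With a library left out in turn, the share lower at 6 h ranged from 10.4% (without 6 h replicate 2) to 15.6%, the 72 h median from 0.09 to 0.29, the share higher from 6 h to 72 h from 12.9% (without 72 h replicate 2) to 24.5% and the share lower from 7.12% (without 72 h replicate 2) to 14.8%, being 8.59% without 72 h replicate 1. The 6 h to 72 h median ranged from 0.19 to 0.32, or 0.11 to 0.26 relative to all sites, and the peak ratio of 6 h over 0 h from 0.788 to 1.22. The labels do not say whether replicates with the same number at different times belong together. Their deviations correlated at 0.0533 to 0.0854 over all tested sites. Counting noise at weak sites lowers such a correlation, so it cannot decide this. With a replicate block, 31.8% were higher and 29.9% lower at 72 h and 13.2% and 18.6% at 6 h. The block brought peak40665 past the threshold at 6 h (-0.32, adjusted p = 0.043) and changed no other call of a named site. Of 1008 values for the 36 sites described under the alternatives, 925 kept their direction and side of the threshold, 57 lost the call, 20 gained it and 6 changed sign. These 6 were peak50232 at 6 h (0.65 without 0 h replicate 2, in a range of -0.95 to 0.65 with a library left out) and, at 72 h, peak29944 (0.56 with loess offsets and 0.19 with TMM factors from shared peaks), peak62224 (0.01 and 0.13) and peak37615 (0.67 with the latter).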
